A study of Mus musculus with 2 samples.

Results

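The miR-99/100 and miR-125 microRNAs (miRNAs) of the mouse come from 6 genes, Mir99a, Mir99b, Mir100, Mir125a, Mir125b-1 and Mir125b-2, which were taken by gene symbol. They are 6 of the 1973 miRNA genes listed in the deposited tables, and all 6 were counted in both libraries. Small RNA was sequenced from lung of B6NCrl mouse embryos at embryonic day 14.5, in 2 libraries that form 1 group, and the labels name no treatment or genotype. Per the labels the fraction was below 30 nt, each library came from a single lung, the sex was pooled male and female, and both share the same donor identifier while the collection days differ. How many embryos stand behind a library is therefore not clear, and the spread between the libraries may be partly technical. With 1 group there was no contrast between conditions, so the comparisons below are between genes within a library and between the libraries.

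The genes lie in 3 clusters, each with a miR-99/100 gene, a let-7 gene and a miR-125 gene. In Caenorhabditis elegans the miR-125 homologue lin-4 and let-7 are the heterochronic miRNAs that time larval development, and in mammals both repress the RNA-binding protein Lin28, which in turn blocks the maturation of let-7. miR-99 and miR-100 are known to repress Mtor and Igf1r, which drive growth. A miRNA recognises its targets mainly by its seed, bases 2 to 8 from the 5′ end, so miRNAs with the same seed can bind many of the same messages.

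The mature sequences from the 5′ arm fall into 2 seed groups, and they are shown because the counts turn on how far they differ. Sequences are those of RefSeq (GRCm38.p6), which held mature entries for all 6 genes, written 5′ to 3′ with the seed in capitals.
miR-99a-5p: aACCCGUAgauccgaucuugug
miR-99b-5p: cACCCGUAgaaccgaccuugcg
miR-100-5p: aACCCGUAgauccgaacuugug
miR-125a-5p: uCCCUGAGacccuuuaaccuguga
miR-125b-5p, from both Mir125b-1 and Mir125b-2: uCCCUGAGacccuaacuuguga

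Counting positions from 1 at the 5′ end, miR-99a-5p and miR-100-5p differ only by U16A, so their first 15 bases are the same. miR-99b-5p differs from miR-99a-5p at 4 positions, A1C, U11A, U16C and U21C. miR-125a-5p and miR-125b-5p share their first 13 bases. The 6 genes give 5 different 5′ arm sequences, because miR-125b-5p is the same 22 bases at both of its loci. Reads that map to more than 1 place were assigned to no gene in the deposited counts, so a full-length miR-125b-5p read could be counted for neither Mir125b-1 nor Mir125b-2. The 3′ arm sequences of these copies differ at 5 positions (G3A, G4A, U7C, C11U and G20C), and are shown here because they can tell the copies apart.
miR-125b-1-3p: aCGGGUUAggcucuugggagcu
miR-125b-2-3p: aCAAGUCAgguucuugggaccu

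The hairpin of Mir125b-1, on chromosome 9 (41581926 to 41582002, plus strand), is printed with both arms in capitals: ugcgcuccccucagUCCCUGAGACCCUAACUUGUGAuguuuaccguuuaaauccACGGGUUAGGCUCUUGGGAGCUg. The tables give a single count per hairpin and do not split it by arm, so which arm or stretch the counted reads came from was not measured.

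In mm10, with GENCODE M21 symbols, the chromosome 16 cluster spans 47408 bases on the plus strand. Mir99a (77598936 to 77599000) comes first, Mirlet7c-1 starts 721 bases further on and Mir125b-2 (77646273 to 77646343) 47337 bases further on. All 3 lie in introns of the long non-coding RNA gene Mir99ahg, and Mir125b-2 also overlaps an exon of the annotated transcript C130023A14Rik on the same strand. The chromosome 9 cluster is of like layout and spans 50578 bases on the plus strand, with Mir100 (41531425 to 41531504), Mirlet7a-2 at 5291 bases and Mir125b-1 at 50501 bases from its start. Its genes lie in introns of the non-coding genes 3110039I08Rik and Gm49317, Mir100 also lies opposite an exon of Gm48742, and Mir125b-1 overlaps an exon of Gm28119. The chromosome 17 cluster is compact, with 692 bases from the start of Mir99b (17830188 to 17830257) to the end of Mir125a (17830812 to 17830879), both on the plus strand. Mir99b lies in an intron of the protein-coding gene Spaca6 and Mir125a overlaps an annotated exon of it. Mirlet7e, 164 bases from the start of that cluster, was not analysed here, because its M21 identifier matched no entry of the tables used.

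Levels are counts on the strand of the gene per 1000000 such counts (CPM). Replicate 1 held 5128214 and replicate 2 held 2332032 counts, so that a single count stands for 0.195 CPM in replicate 1 and for 0.429 CPM in replicate 2. Multimapping reads were 32.9% and 33.1% of all reads in replicates 1 and 2. The tissue label was checked against miRNAs of lung cell types. Mir126a of endothelium reached 76033 CPM in replicate 1 against 58438 CPM in replicate 2, the smooth muscle pair Mir143 and Mir145a 79791 and 62023 CPM in sum, and all 5 members of the epithelial miR-200 family were present with 33294 and 33730 CPM in sum. Markers of other cells were low in sum, in replicates 1 and 2, with 497 and 392 CPM for the erythroid pair, 628 and 573 CPM for white blood cells, 22.4 and 39.5 CPM for hepatocytes, 349 and 37.3 CPM for heart muscle, 6.82 and 14.2 CPM for skeletal muscle and 58.7 and 89.6 CPM for gut. The neuronal genes Mir124a-1, Mir124a-2, Mir124a-3 and Mir9-2 were at 0 counts, and Mir9-3 had 1 count in each library. Reads that map to more than 1 copy would be assigned to none of them, so these values cannot show that neurons were absent. The same limit applies to the gut pair Mir194-1 and Mir194-2. Intervals in the text are 95% exact (Clopper-Pearson) binomial intervals and cover counting error only, since amplified reads need not be independent molecules. How evenly the different sequences were captured was not measured, so levels of different miRNAs compare reads.

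In both libraries the miR-99/100 genes supplied nearly all reads assigned to the 6 genes, and the chromosome 16 copy Mir99a supplied most of those. Together the 6 genes held 6.51% of counts in replicate 1 (6.49 to 6.53) and 5.99% in replicate 2 (5.96 to 6.02), a mean of 6.25% ± 0.367 (SD, n = 2). The 3 miR-99/100 genes held 5.84% ± 0.408 and the 3 miR-125 genes 0.413% ± 0.0411. Within each library the first group exceeded the second in replicate 1 by 15.97-fold and in replicate 2 by 12.6-fold (mean log2 ratio 3.82 ± 0.24, SD, n = 2). Since miR-125b reads that map to both copies are missing, these ratios are upper bounds. The shares are of assigned reads and bound the true shares in neither direction, because the total also lacks the multimapping reads of other miRNAs.

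**Figure D1:**
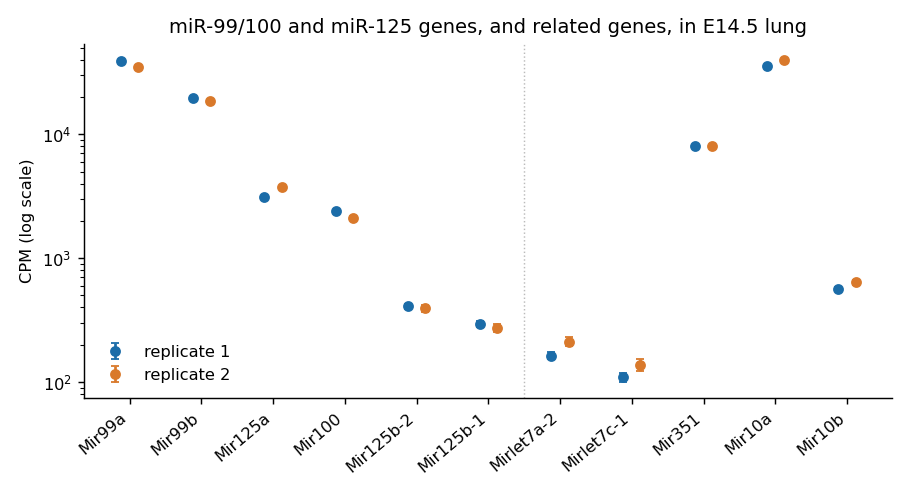
Level of the 6 genes (left of the dotted line) and of related genes (right), in CPM on a log axis; each point is 1 library and bars are 95% exact binomial intervals, mostly smaller than the points. Mir99a stands highest of the 6 at 39249 and 34741 CPM, and Mir125b-1 lowest at 296 and 273 CPM.

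Among the miR-99/100 genes, Mir99a had 201275 counts in replicate 1 and 81017 in replicate 2, or 39249 and 34741 CPM. These were the 7th and 9th highest of all genes in assigned reads, where multi-copy miRNAs can rank too low. Mir99b followed with 100707 and 43484 counts, or 19638 and 18646 CPM, and ranked 14th in both libraries. Mir100 was far below both with 12278 and 4959 counts, or 2394 and 2126 CPM. The values of these 3 genes did not overlap between genes, and the order was the same in both libraries. Mir99a exceeded Mir99b by 2.00-fold and 1.86-fold (mean log2 ratio 0.95 ± 0.07, SD, n = 2).

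Mir99a and Mir100, whose 5′ arm sequences differ at 1 base, stood in nearly the same ratio in both libraries, with Mir99a ahead in replicate 1 by 16.4-fold and in replicate 2 by 16.3-fold. The log2 ratio was 4.03 with an SD of 0.0035 (n = 2). The share of Mir99a among the counts of the pair was 94.3% (94.2 to 94.3) in replicate 1 and 94.2% (94.1 to 94.4) in replicate 2. No source used here gives the mismatch settings of the alignment, and whether reads with a sequencing error at base 16 moved between these genes was not tested.

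Among the miR-125 genes, Mir125a led with 16074 and 8752 counts, or 3134 CPM in replicate 1 and 3753 CPM in replicate 2. It was the only gene of the 6 with the higher CPM in replicate 2. Mir125b-2 had 2093 and 918 counts, or 408 and 394 CPM. Mir125b-1 was the lowest of the 6, with 1516 and 636 counts, or 296 and 273 CPM. Mir125a exceeded the summed copies of miR-125b by 4.45-fold and 5.63-fold (mean log2 ratio 2.32 ± 0.24, SD, n = 2), and held 81.7% and 84.9% of the counts of the 3 genes. This order is that of reads assigned to a single place: the counts of Mir125b-1 and Mir125b-2 are lower bounds, so whether miR-125a or miR-125b was the more abundant in the tissue is not settled. The summed counts of both copies, 3609 and 1554, were as many as 0.107% and 0.103% of the multimapping reads, a pool from all multi-copy miRNAs of which the part due to miR-125b was not measured.

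The copies of miR-125b differed from each other by a small and repeatable amount in their assigned reads. Mir125b-2 exceeded Mir125b-1 in replicate 1 by 1.38-fold and in replicate 2 by 1.44-fold (mean log2 ratio 0.50 ± 0.05, SD, n = 2). Its share of the pair was 58.0% (56.4 to 59.6) and 59.1% (56.6 to 61.5), with intervals that overlap each other and lie above an even split.

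In assigned reads the order of the 6 genes was Mir99a, Mir99b, Mir125a, Mir100, Mir125b-2 and Mir125b-1, and it was the same in both libraries. The narrowest gap in that order apart from the miR-125b copies was that of Mir125a over Mir100, in replicate 1 by 1.31-fold and in replicate 2 by 1.76-fold (mean log2 ratio 0.60 ± 0.30, SD, n = 2). The neighbours in that order were each separated by more than the SD of their log2 ratio. With 2 libraries a two-sided exact sign test cannot go below p = 0.5, so none was run.

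Cluster partners are thought to be cut from shared primary transcripts, and the question of the cluster comparison was whether their reads stood in one proportion. In assigned reads, the miR-99/100 gene exceeded the miR-125 gene in each cluster. On chromosome 16, Mir99a exceeded Mir125b-2 by 96.2-fold and 88.3-fold (mean log2 ratio 6.53 ± 0.09, SD, n = 2). On chromosome 9, Mir100 exceeded Mir125b-1 by 8.10-fold and 7.80-fold (mean log2 ratio 2.99 ± 0.04, SD, n = 2). On chromosome 17, Mir99b exceeded Mir125a by 6.27-fold and 4.97-fold (mean log2 ratio 2.48 ± 0.24, SD, n = 2). The chromosome 17 pair is the one whose mature sequences each occur at a single gene in the RefSeq table, while in the other 2 ratios the miR-125b count is a lower bound, which makes each ratio an upper bound. Whether the proportions differ between the clusters is therefore not settled by these counts.

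**Figure D2:**
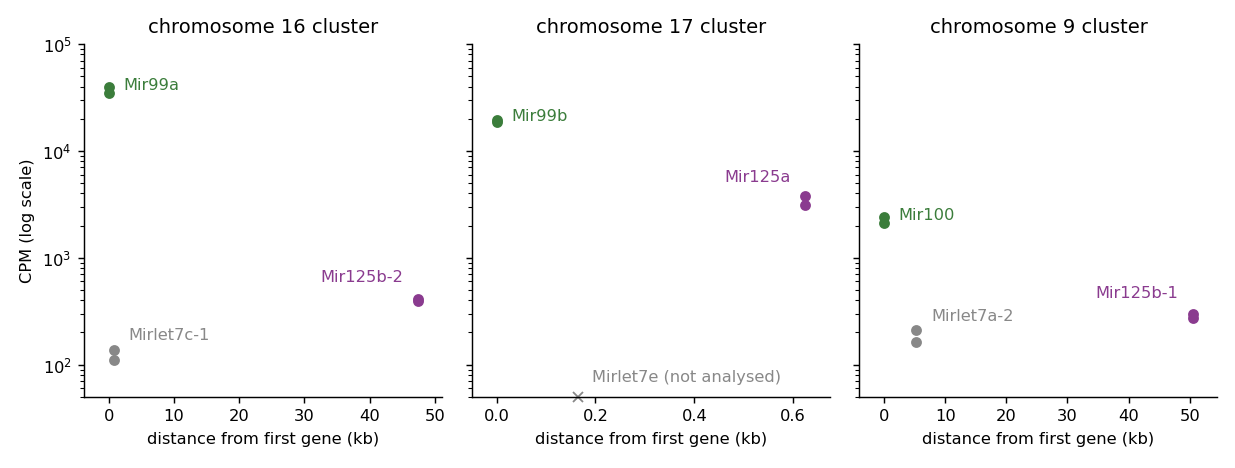
Genes of the 3 clusters, each panel with the distance from the first gene's start in kb and the level in CPM on a log axis; both libraries are drawn as points, with miR-99/100 genes in green, miR-125 genes in purple and let-7 genes in grey. In each cluster the first gene has the most assigned reads of the genes analysed. A cross marks the position of Mirlet7e, which was not analysed, and its height stands for no level.

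By cluster, the chromosome 16 genes Mir99a and Mir125b-2 held 60.9% of the counts of the 6 genes in replicate 1 (60.7 to 61.1) and 58.6% in replicate 2 (58.4 to 58.9). The chromosome 17 genes Mir99b and Mir125a held 35.0% and 37.4%, and the chromosome 9 genes Mir100 and Mir125b-1 4.13% and 4.003%. In assigned reads the chromosome 16 genes exceeded those of chromosome 9 by 14.7-fold and 14.6-fold (mean log2 ratio 3.88 ± 0.01, SD, n = 2). These 2 clusters have a like layout and nearly the same 5′ arm sequences. The chromosome 16 genes exceeded the genes of chromosome 17 by 1.74-fold and 1.57-fold. Reads of miR-125b that map to both copies are missing from the sums of chromosomes 16 and 9. How these shares and ratios would stand with those reads was not measured.

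The let-7 genes of the same clusters had few assigned reads. Mirlet7c-1 on chromosome 16 had 564 and 319 counts, or 110 CPM in replicate 1 and 137 CPM in replicate 2. That was 357-fold and 254-fold below Mir99a, a log2 ratio of let-7 to miR-99a of -8.23 ± 0.35 (SD, n = 2). Mirlet7a-2 on chromosome 9 had 837 and 495 counts, or 163 and 212 CPM, 14.7-fold and 10.02-fold below Mir100. Both let-7 genes were also below the miR-125b copy of their cluster in assigned reads. The let-7c-5p sequence occurs at 2 genes in the RefSeq table, and let-7a, too, is a multi-copy miRNA, so these counts are lower bounds in the same way as those of miR-125b.

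Outside the clusters, the miR-125 seed was also borne by Mir351, an X-linked gene, and by Mir6367 and Mir6394. Mir351 shares the first 8 bases with miR-125b-5p and is shown with the seed in capitals.
miR-351-5p: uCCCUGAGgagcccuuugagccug

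Mir351 had 41445 and 18851 counts, or 8082 CPM in replicate 1 and 8084 CPM in replicate 2, more than the reads assigned to the 3 miR-125 genes together. It exceeded their sum by 2.11-fold and 1.83-fold (mean log2 ratio 0.97 ± 0.14, SD, n = 2), and it exceeded Mir125a alone by 2.58-fold and 2.15-fold. Of the counts of the genes found with this seed, Mir351 held 67.8% in replicate 1 (67.4 to 68.2) and 64.7% in replicate 2 (64.1 to 65.2). The unassigned reads of miR-125b are missing from that sum, so the share and the ratio to the sum are upper bounds. Mir6367 and Mir6394 had 0 counts in both libraries. With 3 counts taken as the limit that a count of 0 allows, that is up to 0.585 CPM in replicate 1 and 1.29 CPM in replicate 2 for each gene. Among the RefSeq entries searched, which did not cover every chromosome, no gene outside the 6 had the miR-99/100 seed.

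miR-10a and miR-10b, from genes within the Hox clusters, resemble miR-100 apart from an inserted base that lies within the seed and changes it. With base 6 of miR-10a-5p taken out, its remaining 22 bases differ from miR-100-5p at 2 positions.
miR-10a-5p: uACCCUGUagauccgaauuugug

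Mir10a had 35245 CPM in replicate 1 and 39399 CPM in replicate 2, close to Mir99a, and the order of these 2 genes turned round between the libraries: Mir99a was 1.11-fold of Mir10a in replicate 1 and 0.882-fold in replicate 2. The log2 ratio was -0.01 ± 0.24 (SD, n = 2), so no difference in level was shown. The 3 miR-99/100 genes together exceeded Mir10a and Mir10b by 1.71-fold and 1.39-fold. Mir10b, at 563 and 637 CPM, was below Mir100 in both libraries.

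The libraries differed for all 6 genes by more than counting error, by small amounts and in the same direction for 5 of them. In exact two-sided binomial tests of the reads in the 2 libraries, given library sizes scaled by the trimmed mean of M-values (TMM), all 6 passed a Benjamini-Hochberg adjusted p of 0.05. Over all 404 genes tested 169 passed, 41.8%, and among the 187 genes of at least 100 CPM 138 passed, so such calls were common at this depth. These tests compare libraries and not conditions. The ratios of replicate 1 to replicate 2, as log2 of scaled CPM plus 1, were 0.27 for Mir99a, 0.26 for Mir100, 0.20 for Mir125b-1, 0.16 for Mir99b and 0.14 for Mir125b-2, against -0.17 for Mir125a. The adjusted p from the exact binomial test was 2.10e-87 for Mir99b, 1.74e-26 for Mir100, 6.94e-18 for Mir125a, 0.0070 for Mir125b-1 and 0.034 for Mir125b-2, and for Mir99a it was too small to be computed. Their median absolute log2 ratio was 0.19, against 0.17 over the 187 genes of at least 100 CPM and 0.21 over the 320 genes that had 10 or more counts in each library. Their median was 0.18, against 0.03 over the 187 genes and -0.01 over the 320. With library totals in place of TMM, 4 of the 6 passed, 3 higher in replicate 1 and Mir125a higher in replicate 2, and over all genes the calls were 65 higher in replicate 1 and 112 higher in replicate 2, against 97 and 72 with TMM.

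The common dispersion of these libraries (0.0337, a coefficient of variation of 18.3%) was added to counting error in a beta-binomial test on scaled and rounded counts. In that test 0 of the 6 passed and 0 had an unadjusted p under 0.05. Over all 404 genes 1 passed, 0.248%. The dispersion was estimated from the differences between these same 2 libraries, so few genes could pass. The result therefore does not show that the 6 genes were alike in both libraries. Of the marker lists above, the endothelial gene Mir126a and the smooth muscle sum were higher in replicate 1, while the epithelial sum was nearly equal. Within the smooth muscle list Mir143 had 78321 CPM in replicate 1 against 60488 CPM in replicate 2, and Mir145a had 1470 CPM against 1535 CPM. Among markers of other cells, the heart muscle pair Mir208a and Mir208b had 349 CPM in replicate 1 against 37.3 CPM in replicate 2. The part of tissue makeup in the differences of the 6 genes was not tested, and in tissue libraries fewer cells of a type and less RNA per cell cannot be told apart.

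**Figure D3:**
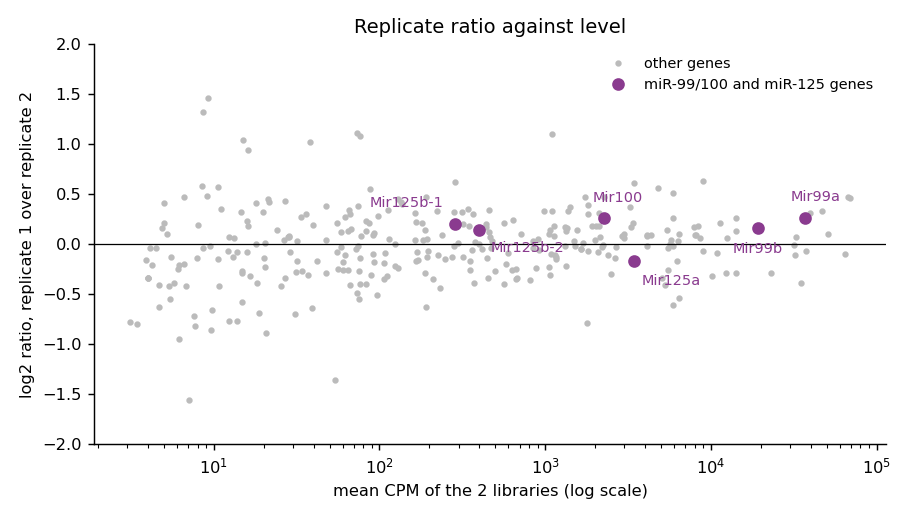
Log2 ratio of replicate 1 over replicate 2 on TMM-scaled CPM plus 1 against mean CPM on a log axis, for the 320 genes that had 10 or more counts in each library; the 6 genes are purple, other genes grey, and 1 gene lies outside the vertical range. Mir125a lies below 0 at -0.17, and the other 5 lie above, from 0.14 to 0.27.

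Ratios between the 6 genes need no scaling between libraries, and among them Mir125a was the gene that moved against the rest. Of the 15 pairs, 5 include Mir125a, and in all 5 the exact intervals of the share of the first gene were apart between the libraries, with the log2 ratio shifting by 0.31 to 0.44 in size. Of the 10 pairs without Mir125a the intervals were apart in 2, Mir99a with Mir99b and Mir99b with Mir100, and the shift was at most 0.12. This division of the pairs was made after the values had been seen, and the 5 pairs share 1 gene, so they are not separate observations. Over all 15 pairs the intervals were apart in 7. Among all 17391 pairs of genes of at least 100 CPM the intervals were apart in 64.9%, and the median shift was 0.25 in size. Within a cluster the largest shift was that of the chromosome 17 pair, whose hairpins lie within 692 bases, at 0.33 in size. Mir99b held 86.2% of the counts of Mir99b and Mir125a in replicate 1 (86.0 to 86.4) and 83.2% in replicate 2 (82.9 to 83.6). A shift of that size is not far from the median over all pairs.

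**Figure D4:**
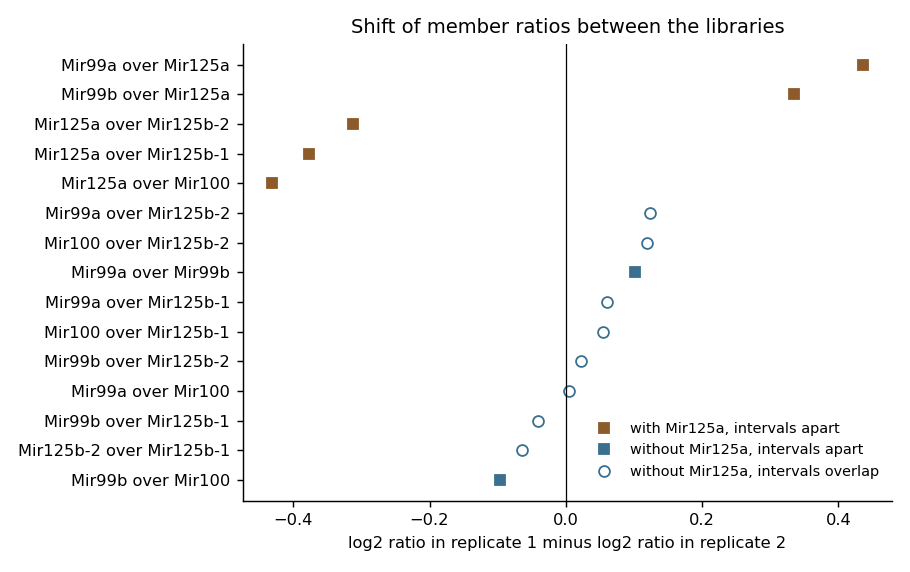
Shift of the log2 ratio of each of the 15 pairs of the 6 genes, as replicate 1 minus replicate 2; squares mark pairs whose exact intervals are apart between the libraries and open circles those that overlap. The 5 pairs with Mir125a, in brown, lie at 0.31 or more from 0, and the 10 other pairs lie within 0.12.

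The genes with the most similar levels over both libraries, by the smallest distance in log2(CPM + 1) among those 320 genes, belong to other families. They were Mirlet7i for Mir99a (42404 CPM in replicate 1 and 36393 in replicate 2), Mir298 for Mir125a (3199 and 3828 CPM), Mir872 for Mir100 (2267 and 1944 CPM), Mir329 for Mir125b-2 (396 and 379 CPM) and Mir32 for Mir125b-1 (306 and 261 CPM). Mir99b had no close neighbour, the nearest being Mir30e at 20012 and 26055 CPM, a distance of 0.48 on the log2 scale against 0.04 to 0.15 for the other 5. With 2 libraries this likeness is mainly one of level. No count fell on the strand opposite to any of the 6 genes in either library.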

How the data were processed

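MicroRNA-seq gene counts of 2 E14.5 lung libraries, 1 group, were used. Each table the authors deposited has a row for each miRNA gene and 3 columns of raw counts. The values show these to be both strands together, the strand of the gene and the opposite strand. Per the deposited readme they derive from mm10 alignments with GENCODE M4. Aligner, counter and trimming were not given in the sources used here. Of the 4 summary entries, kept out of all sums, unmapped reads were 12.7% and 11.7% and multimapping reads 32.9% and 33.1% of reads in replicates 1 and 2. Reads on no gene were 4.10% and 3.93%, and ambiguous reads 0%.

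CPM used the 5128214 and 2332032 gene-strand counts. Symbols and coordinates came from GENCODE M21 by identifier (1894 of 1973 matched, and the 79 others held 1 count). No column of per-sample values lacked a sample (0 columns). Ratios are of counts within a library. Genes with at least 10 counts in sum were tested with exact binomial tests on TMM sizes (edgeR 4.0.16, R 4.3.3, with DESeq2 1.42.0 as an alternative, Python 3.11.15 and scipy 1.17.1). The binomial test was first run on simulated counts with counting error only and with library totals as sizes. That simulation does not cover TMM sizes or spread between libraries beyond counting error. The design holds no contrast, so edgeR's model tests were not used. The genes named are the 6, their let-7 partners, genes with the same seeds outside chromosome 18, Mir10a and Mir10b and the nearest gene in level. The genes and lists were chosen with earlier results of these data known. The shares and shifts over all 15 pairs, their grouping by Mir125a and the let-7, Mir351, Mir10 and cluster ratios were added after values were seen.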

Additional observations from a re-analysis of the deposited data

How the results depend on the processing

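The share of the 6 genes was 3.62% of all mapped reads, 6.72% without the most abundant gene in the denominator and 2.55% without Mir99a, and the unstranded column left it within 1 SD. The log2 ratio of miR-99/100 to miR-125 genes was 4.97 without the most abundant gene of each group and 4.09 without Mir125b-1 and Mir125b-2, an alternative added after seeing the data. Partner and copy ratios moved by less than 1 SD with a pseudocount of 1 count. The unstranded column cannot change them, since no count of the 6 genes lies on the opposite strand, and with 2 libraries a ratio without either replicate is always within 1 SD of the mean, so these alternatives say nothing about stability. The log2 ratio of Mir99a to Mir10a ranged from -0.18 to 0.16 when 1 replicate was left out, so its direction rests on a single library. The number of the 6 genes that differed between the libraries was 6 with DESeq2 size factors, a pseudocount of 0.5 CPM, the unstranded column or at least 10 counts in each library, 5 without a filter, 4 with library totals and 0 with the common dispersion added. Mir125b-2 was lost without a filter (exact binomial adjusted p = 0.056), and Mir125b-2 and Mir125b-1 with library totals (0.55 and 0.18). No paired analysis was possible because there is 1 group. Depth limits the low genes, with 636 counts for Mir125b-1 and 319 for Mirlet7c-1 in replicate 2, and reads set aside as multimapping limit the miR-125b and let-7 counts.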
